A study of Mus musculus with 10 samples.

Results

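Molecular chaperones of the HSP70, HSP110, HSP90, J-domain and small heat shock protein families were followed in 5 mouse small cell lung cancer lines with MYCN on or off. Genes were taken by symbol, as those that begin with Dnaja, Dnajb, Dnajc, Hspa or Hspb and a digit or with Hsp90, and Hsph1. These symbols matched 70 of the 24391 genes listed. Of these, 59 had at least 10 counts in 4 or more of the 10 libraries and are described here, as 13288 genes of the whole table did by the same rule. The 59 genes comprised 9 HSP70, 3 HSP110 and 3 HSP90 genes, 4, 10 and 26 genes of J-domain classes A, B and C, and 4 small heat shock protein genes. By the place where the proteins are known to work, 32 belong to the cytosol and nucleus, 14 to the endoplasmic reticulum (ER), 8 to mitochondria and 4 to vesicles, endosomes or cilia, and Dnajc22 was left unassigned. The remaining 11 genes were Dnajb3, Dnajb7, Dnajb8, Dnajc5b, Dnajc5g, Hspa1a, Hspa1b, Hspb1, Hspb3, Hspb7 and Hspb9. At the edge of the rule, Dnajc22 reached 10 counts in 4 libraries, with a highest count of 54, whereas Hspa1b reached it in 2 libraries, with a highest count of 936.

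The lines G4314, G9351, G9488, G9529 and G9577 each derive from a mouse tumour, and all carry the same genotype, given as Rb;p53, TRE-MYCN, LSL-RTTA. In this system doxycycline lets the rtTA activator drive a MYCN transgene from a tetracycline-responsive promoter. Each line gave 1 library grown with doxycycline (MYCN on) and 1 library grown for 4 days without it (MYCN off), so that every chaperone was compared within lines. No culture without the transgene was part of the set, so effects of MYCN and of doxycycline itself cannot be told apart, and the labels do not say whether cultures were repeated. Nor do they give the promoter that drives Cre, the tumour cell that each line descends from or the species of the transgene.

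HSP70 proteins bind and release unfolded stretches of other proteins in a cycle driven by ATP. J-domain proteins bring clients to HSP70 and trigger its ATPase, HSP110 proteins exchange its nucleotide, and HSP90 takes over clients such as kinases and steroid receptors at a later stage. Each main compartment has its own HSP70, which is Hspa8 in the cytosol, Hspa5 (BiP) in the ER and Hspa9 (mortalin) in mitochondria. Small heat shock proteins hold unfolded proteins without ATP.

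Levels below are CPM, counts scaled to library size with TMM factors, and changes are log2 MYCN on minus MYCN off from edgeR's quasi-likelihood F test with the line as a block. A gene was called at an adjusted p below 0.05 over the 12835 genes tested. Values in single libraries follow the order G4314, G9351, G9488, G9529, G9577. Total counts ran from 9586465 to 11960074 per library. Mycn had 538, 496, 884, 791 and 977 CPM with MYCN on, against 177, 27.6, 189, 110 and 85.9 CPM with MYCN off, in the direction of the labels in each line.

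One line stood apart from the others. The summed level of 12 neuroendocrine markers in G9577 was 224 CPM with MYCN on, against 184 CPM with MYCN off. In the other 4 lines it was 3370 to 4210 CPM with MYCN on and 5320 to 7310 CPM with MYCN off. A list of 13 non-neuroendocrine or mesenchymal markers summed to 4760 CPM with MYCN on, against 17800 CPM with MYCN off, in G9577, but to at most 203 CPM with MYCN on, against 178 CPM with MYCN off, elsewhere. Fibroblast markers reached 130 CPM with MYCN on, against 1570 CPM with MYCN off, both in G9577. Most of this came from Pdgfrb (126 CPM with MYCN on, 1080 CPM with MYCN off) and Pdgfra (4.1 and 483 CPM). Dcn, Lum and Thy1 had at most 6.01 CPM in that line. Leukocyte, endothelial and lung epithelial markers summed to at most 5.80, 35.7 and 4.18 CPM with MYCN on. With MYCN off they summed to at most 59.9, 131 and 246 CPM, all in G9577. Nearly all of these came from a single gene of each list, Lyz2 (55 CPM), Kdr (130 CPM) and Sftpa1 (243 CPM). Ptprc, Cd3e, Cdh5 and Scgb1a1 had 0 CPM in that library. In these bulk cultures fewer cells of a type and less RNA per cell cannot be told apart. Counts of calls are therefore given with and without G9577.

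With MYCN on, 13 of the 58 chaperone genes tested rose (22.4%) and 7 fell (12.1%), while 38 did not pass the test. Of all genes tested, 15.3% rose and 15.6% fell. In either direction, 20 of 58 chaperone genes and 31.0% of all genes passed the test. The median log2 change of the chaperone genes was -0.04, and that of all genes was -0.08. With RLE scaling 11 rose and 11 fell, with library size alone 12 rose and 10 fell, and with DESeq2 14 rose and 17 fell. In each of these fits, falls also outnumbered rises over all genes and were more numerous than in edgeR with TMM. The shares of 15.3% and 15.6% are therefore no background for these counts.

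Calls were also counted by compartment, beside rises of 15.3% and falls of 15.6% over all genes tested. Of 32 genes of the cytosol and nucleus 9 rose (28.1%) and 4 fell (12.5%), with a median log2 change of 0.20. Of 8 mitochondrial genes 4 rose (50%) and 0 fell (median 0.30). Of 14 ER genes 0 rose and 2 fell (14.3%, near the share of all genes), with a median of -0.29. Of the 4 vesicle, endosome or cilium genes 0 rose and 1 fell (median -0.15). Whether compartments differed was not tested. At an unadjusted p below 0.05 edgeR gave a fall for 1 mitochondrial gene, Dnajc28, which DESeq2 also called. Without G9577, 14 chaperone genes rose and 9 fell, and all 20 calls made with G9577 remained. In that fit 17.4% of all genes rose and 17.4% fell, and the counts were 10 rises and 6 falls in the cytosol and nucleus, 4 rises in mitochondria and 0 rises and 2 falls in the ER.

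**Figure D1:**
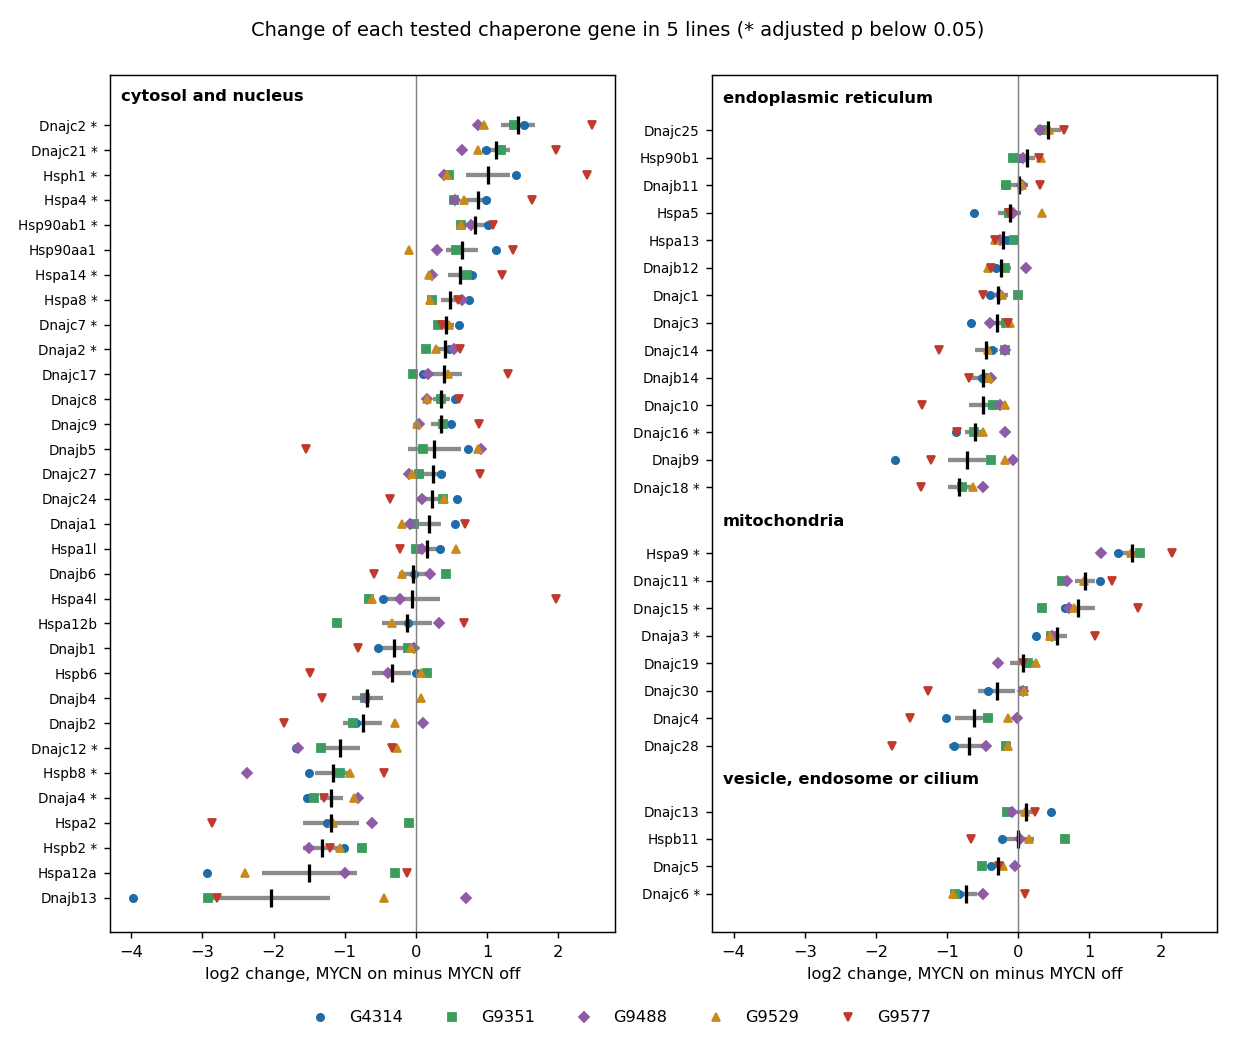
Change of each of the 58 tested chaperone genes, as log2 MYCN on minus MYCN off, in 4 blocks by compartment. Coloured symbols are the 5 lines, black ticks the fitted log2 change, grey bars its standard error to either side and asterisks an adjusted p below 0.05. The mitochondrial Hspa9 lies right of 0 in all 5 lines, while 12 of the 14 ER genes carry no asterisk and Dnajc16 and Dnajc18 lie left of 0.

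By family, 2 of 3 HSP110 genes, 3 of 9 HSP70 genes and 1 of 3 HSP90 genes rose, and 0 genes of these families fell in edgeR with all lines and the settings given above. Hspa2 passed an unadjusted p of 0.05 as a fall (0.0166). It was called as a fall by DESeq2 (adjusted p = 0.00402) and limma-voom (0.0329), and by edgeR with RLE scaling (0.0434), when genes with low counts were kept (0.0442), with library size alone (0.0448) and without G9577 (0.0384). Among J-domain genes, class A held 2 rises and 1 fall among 4 genes, class C held 5 rises and 4 falls among 25 genes, and class B held 0 calls among 10 genes. At an unadjusted p below 0.05 edgeR gave falls for Dnajb2, Dnajb4, Dnajb9, Dnajb13 and Dnajb14 of class B, whose adjusted p ran from 0.0525 to 0.0984. DESeq2, which also called more falls over all genes than edgeR, called these 5 genes, and limma-voom called Dnajb4. In edgeR, Dnajb4 was called with RLE scaling (adjusted p = 0.0417), with library size alone (0.0449) and without G9529 (0.0319). Dnajb14 was called with RLE scaling (0.0483), and Dnajb2 and Dnajb13 without G9488 (0.0488 and 0.0367). Among 4 small heat shock protein genes 0 rose and 2 fell. Hspb6 (log2 change -0.34, adjusted p = 0.355) and Hspb11 (-0.01, adjusted p = 0.975) were not called. Each was higher with MYCN on in 3 of 5 lines. Higher values with MYCN on in all 5 lines were found for 16 of 58 tested chaperone genes and for 20.9% of all genes tested, and lower values in all 5 lines for 19 of 58 and for 23.2% of all genes. The 59 genes and the 11 below the minimum summed to 10500, 9830, 10200, 10100 and 15200 CPM with MYCN on, against 8380, 8180, 7920, 7800 and 9690 CPM with MYCN off. Every line had the higher sum with MYCN on, and the groups did not overlap, with the highest value in G9577. Hsp90ab1 alone made up 29.8% of this sum with MYCN on and 22.2% with MYCN off, as a mean over libraries. Genes with near copies, such as Hspa8 and Hsp90aa1, enter this sum only in part.

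Among the HSP70 and HSP110 genes of the cytosol, the exchange factor Hspa4 changed in each line. Hspa4 (mm9 chromosome 11, 53073316 to 53113981, minus strand) had 718, 705, 787, 737 and 1180 CPM with MYCN on, against 362, 483, 538, 464 and 380 CPM with MYCN off. All libraries with MYCN on lay above all libraries with MYCN off. It rose 1.83-fold (log2 0.87, SE 0.19, adjusted p = 0.0145), and without G4314 it missed the threshold at a log2 change of 0.83 (adjusted p = 0.0626). Hsph1, the stress-inducible HSP110 (mm9 chromosome 5, 150419420 to 150438890, minus strand), had 265, 169, 482, 254 and 633 CPM with MYCN on, against 99.8, 122, 368, 188 and 120 CPM with MYCN off. The groups overlapped, with G9488 high in both states, and G9577 and G4314 showed the widest gaps between on and off. The rise of Hsph1 was 2.01-fold (log2 1.01, SE 0.31, adjusted p = 0.047) and stood close to the threshold. It was not called with RLE scaling (adjusted p = 0.057), with library size alone (0.0557), or without G4314 (0.153), G9351 (0.083), G9488 (0.0638) or G9529 (0.0653). Without G9577 it was called, at a log2 change of 0.68.

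Hspa8, the constitutive HSP70 of the cytosol (mm9 chromosome 9, 40609356 to 40613282, plus strand), had 88.5, 62.3, 97.6, 72.5 and 131 CPM with MYCN on, against 52.9, 53.3, 62.2, 63.3 and 86.5 CPM with MYCN off. Each line was higher with MYCN on, but the groups overlapped, since G9351 and G9529 with MYCN on lay below G9577 with MYCN off. It rose 1.40-fold (log2 0.48, SE 0.13, adjusted p = 0.0337). The call was lost without G4314 (adjusted p = 0.129), G9351 (0.0725), G9488 (0.0899) or G9529 (0.0523), and in the fit that kept every gene with low counts (0.0502). These levels can hold only part of the Hspa8 reads. In the GENCODE M21 transcripts, 74.8% of its stretches of 50 bases also occur in 13 other genes, 12 of them pseudogenes, and reads mapping to several places were not counted. The atypical HSP70 Hspa14, a partner of Dnajc2 on the ribosome, rose 1.54-fold (log2 0.62, adjusted p = 0.0338), a call that was lost without G4314 (0.116) or G9351 (0.111).

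Hspa4l, the third HSP110 gene, was not called with all lines (log2 change -0.05, adjusted p = 0.931). It had 142, 110, 104, 108 and 312 CPM with MYCN on, against 196, 175, 122, 165 and 79.3 CPM with MYCN off. G9577 was 1.97 log2 units higher with MYCN on, whereas the other 4 lines changed by -0.66 to -0.23. Without G9577 the log2 change was -0.48 (adjusted p = 0.0168). Dnajb5, a class B J-domain gene, showed the opposite arrangement. G9577 changed by -1.54 and the other 4 lines by 0.10 to 0.92, and its log2 change was 0.26 with all lines (adjusted p = 0.609) and 0.68 without G9577 (adjusted p = 0.0239). Hspa2, known from male germ cells, had a log2 change of -1.19 (adjusted p = 0.0523), and -0.77 without G9577 (adjusted p = 0.0384). Hspa1l, Hspa12a and Hspa12b were not called, with adjusted p between 0.123 and 0.819.

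Of the cytosolic HSP90 genes, the constitutive Hsp90ab1 had the highest level of all chaperone genes in these libraries by the reads counted. Per length, it averaged 1340 RPKM (CPM per kilobase of exon) with MYCN on and 743 RPKM with MYCN off. Hsp90ab1 (mm9 chromosome 17, 45704727 to 45710210, minus strand) had 3110, 3010, 2840, 2890 and 4920 CPM with MYCN on, against 1530, 1930, 1660, 1870 and 2320 CPM with MYCN off. The groups did not overlap, and G9577 with MYCN on was the highest library. The rise was 1.78-fold (log2 0.83, SE 0.15, adjusted p = 0.00827). Hsp90aa1, the stress-inducible copy (mm9 chromosome 12, 111929246 to 111934605, minus strand), had 345, 282, 349, 277 and 518 CPM with MYCN on, against 159, 192, 287, 297 and 200 CPM with MYCN off. G9529 was slightly lower with MYCN on, the other 4 lines were higher, and the groups overlapped. Its log2 change of 0.65 (SE 0.22) was not called (adjusted p = 0.0627), but it passed with DESeq2 (0.041) and without G9529 (log2 change 0.81, adjusted p = 0.042). In GENCODE M21, 58.5% of its stretches of 50 bases also occur in 4 pseudogenes, so its levels are those of the remaining sequence.

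**Figure D2:**
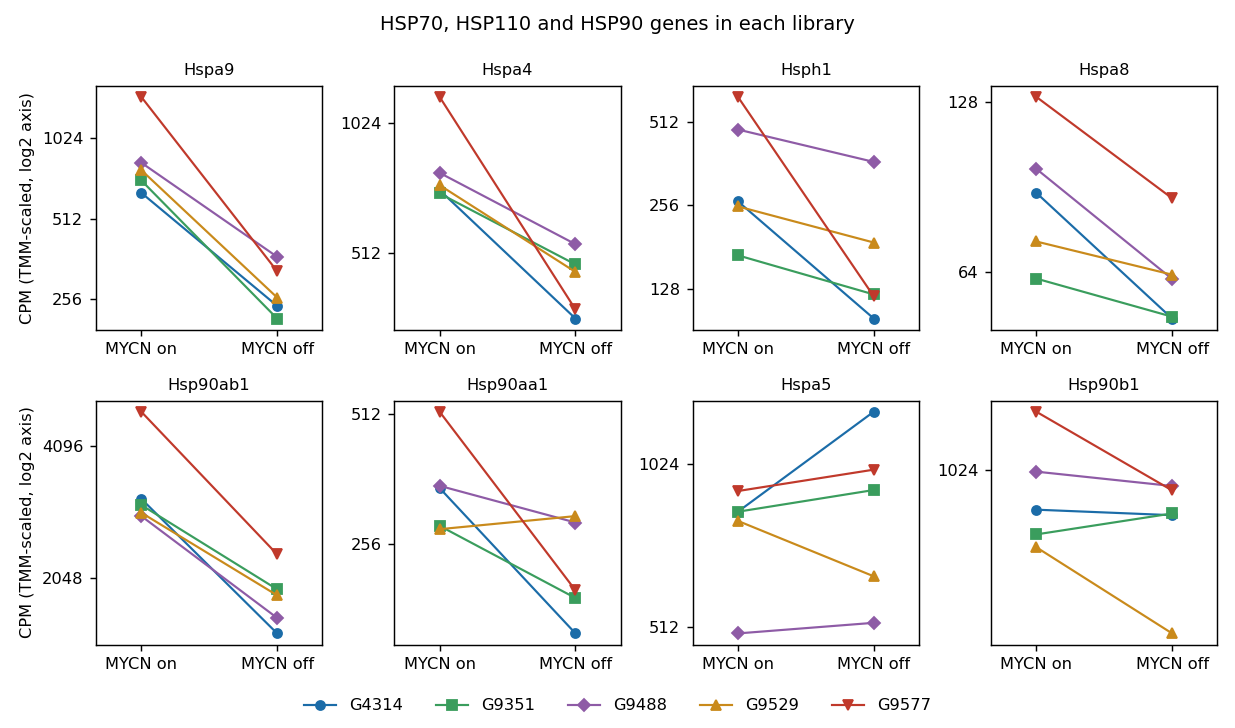
CPM (log2 axis, a scale of its own in each panel) of 8 HSP70, HSP110 and HSP90 genes in each library, MYCN on at the left and MYCN off at the right. Lines join the 2 libraries of a cell line. Hspa9, Hspa4 and Hsp90ab1 are higher with MYCN on in all 5 lines without overlap of the groups, while Hspa5 and Hsp90b1 of the ER run in both directions.

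Of the cytosolic J-domain genes, Dnajc2 and Dnajc21 had the largest rises. Dnajc2 (MPP11 or zuotin), the J protein that acts with Hspa14 on nascent chains (mm9 chromosome 5, 21263095 to 21290983, minus strand), had 119, 118, 116, 127 and 249 CPM with MYCN on, against 41.6, 45.3, 62.7, 65.3 and 44.4 CPM with MYCN off. The groups did not overlap, and with MYCN on the other 4 lines lay close together while G9577 was higher. Dnajc2 rose 2.71-fold (log2 1.44, SE 0.24, adjusted p = 0.00714), and 10.9% of its stretches of 50 bases are shared with 1 pseudogene. Dnajc21, which takes part in maturation of the large ribosomal subunit (mm9 chromosome 15, 10376518 to 10400271, minus strand), had 88.3, 103, 131, 103 and 136 CPM with MYCN on, against 44.4, 44.6, 83.6, 56.2 and 34.6 CPM with MYCN off. All libraries with MYCN on exceeded all with MYCN off. Its rise was 2.19-fold (log2 1.13, SE 0.20, adjusted p = 0.00852), and like those of Dnajc2 and Hsp90ab1 it was called without each line in turn. Of the other cytosolic J proteins, Dnajc7, which binds both HSP70 and HSP90, rose 1.35-fold (log2 0.43, adjusted p = 0.0192) and Dnaja2, a general HSP70 partner, rose 1.33-fold (log2 0.41, adjusted p = 0.0349). Each was higher with MYCN on in 5 of 5 lines, but neither was called without G4314 (adjusted p = 0.0821 for Dnajc7 and 0.122 for Dnaja2), G9351 (0.0642 and 0.0724), G9488 (0.0512 and 0.0976) or G9529 (0.0617 and 0.081). Dnajb1, the main class B partner of Hspa8, averaged 68.7 ± 10.4 CPM with MYCN on, against 87.6 ± 27.8 CPM with MYCN off (SD, n = 5 each) and was not called (adjusted p = 0.162). Dnajc8, which associates with the spliceosome, missed the threshold at a log2 change of 0.36 (adjusted p = 0.0523, and 0.0463 in limma-voom), and so did the histone chaperone Dnajc9 at 0.36 (adjusted p = 0.11). Dnaja1, Dnajb6, Dnajc17, Dnajc24 and Dnajc27 were not called, with log2 changes between -0.04 and 0.39.

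The 4 falls among cytosolic genes were those of Dnaja4, Dnajc12, Hspb8 and Hspb2. Dnaja4, a class A J protein (mm9 chromosome 9, 54547366 to 54564124, plus strand), had 74.3, 42.2, 105, 75.3 and 2.70 CPM with MYCN on, against 215, 114, 184, 137 and 6.90 CPM with MYCN off. Each line was lower with MYCN on, and both G9577 libraries lay far below the rest, so that the groups overlap only through G9577. The fall was 2.28-fold (log2 -1.19, SE 0.16, adjusted p = 0.0042), and the gene was called without each line in turn. In GENCODE M21, 51.9% of its stretches of 50 bases also belong to transcripts of Wdr61. In the mm9 gene models used for counting, its exons overlapped no other gene. Dnajc12, a partner of the aromatic amino acid hydroxylases (mm9 chromosome 10, 62845191 to 62871588, plus strand), had 13.4, 16.5, 28.1, 15.5 and 8.29 CPM with MYCN on, against 43.4, 41.7, 88.9, 18.6 and 10.5 CPM with MYCN off. The gap was wide in G4314, G9351 and G9488 and narrow in G9529 and G9577, and the groups overlapped. It fell 2.11-fold (log2 -1.07, SE 0.28, adjusted p = 0.0262), and the call was lost without G4314 (0.0889), G9351 (0.089) or G9488 (0.0934).

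Hspb8, a small heat shock protein that works with the co-chaperone Bag3 (mm9 chromosome 5, 116858500 to 116872873, minus strand), had 31.6, 26.2, 0.372, 10.1 and 245 CPM with MYCN on, against 89.8, 55.1, 2.74, 19.3 and 335 CPM with MYCN off. Each line was lower with MYCN on, yet the lines spanned a far wider range than the change, from G9488 at the bottom to G9577 at the top. The fall was 2.23-fold (log2 -1.16, SE 0.26, adjusted p = 0.0172), and the gene was not called without G4314 (0.0695) or G9351 (0.0581). Hspb2, a small heat shock protein best known from muscle, fell 2.49-fold (log2 -1.32, adjusted p = 0.0113) at low levels of 1.74 ± 1.87 CPM with MYCN on, against 4.41 ± 4.58 CPM with MYCN off (SD, n = 5 each). Its exons share 30.0% of their bases with Cryab in the mm9 gene models, where reads overlapping both genes were not counted, and without G9488 it was not called (0.0507).

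The promoter windows of Hsph1, Dnaja4 and Hspb8 are shown because they hold the short form of the heat shock element, the word read by heat shock factors, and because these genes moved in different directions. Windows run from 250 bases before to 50 bases after the gene start, from RefSeq on GRCm38.p6, and were found for 46 of the 59 genes. The word searched was GAANNTTC or TTCNNGAA, which reads the same way on both strands, and it occurred in 9 of the 46 genes (19.6%), in 17.0% of all 27025 genes with a window and in 13.5% of the tested genes with one. Capitals mark the matches in the stretches at chr5:149636266-149636399 (minus strand), chr9:54699439-54699544 (plus strand) and chr5:116422825-116422892 (minus strand).
Hsph1: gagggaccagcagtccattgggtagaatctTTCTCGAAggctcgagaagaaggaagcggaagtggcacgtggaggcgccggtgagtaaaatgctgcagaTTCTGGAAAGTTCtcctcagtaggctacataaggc
Dnaja4: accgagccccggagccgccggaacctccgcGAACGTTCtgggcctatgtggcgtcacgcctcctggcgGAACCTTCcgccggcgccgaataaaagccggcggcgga
Hspb8: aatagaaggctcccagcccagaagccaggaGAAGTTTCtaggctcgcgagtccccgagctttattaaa
Hsph1 held 3 matches, of which the last 2 overlap, Dnaja4 held 2 and Hspb8 held 1. The Hsph1 stretch also holds the E-box CACGTG, the preferred word of the MYC family, in lower case between its matches. That E-box was found in 5 of the 46 chaperone windows (10.9%), in 8.09% of all genes with a window and in 11.8% of the tested genes with one. Of the 8 chaperone genes with a window that rose, Hsph1 was the only one to hold either word. Hspa9, Hsp90ab1, Dnajc2, Dnajc11 and Hspa8, which also rose, had no window and were not searched.

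In mitochondria, Hspa9 had the largest rise of all chaperone genes called. Hspa9, the matrix HSP70 that pulls in imported proteins and serves iron-sulphur cluster assembly (mm9 chromosome 18, 35097069 to 35114005, minus strand), had 640, 712, 829, 778 and 1460 CPM with MYCN on, against 242, 217, 369, 260 and 326 CPM with MYCN off. The lowest library with MYCN on lay well above the highest with MYCN off, and G9577 with MYCN on was highest of all. It rose 3.04-fold (log2 1.6, SE 0.16, adjusted p = 0.003), with line changes of 1.17 in G9488 to 2.16 in G9577. It was called under each of the 12 alternatives tried, with log2 changes of 1.48 to 1.75. Per length, Hspa9 averaged 290 RPKM with MYCN on and 93.0 RPKM with MYCN off, where the ER counterpart Hspa5 averaged 297 RPKM with MYCN on and 333 RPKM with MYCN off.

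Dnajc11, a J protein of the mitochondrial membranes that is tied to cristae structure (mm9 chromosome 4, 151307829 to 151356068, plus strand), had 208, 161, 202, 303 and 207 CPM with MYCN on, against 93.3, 105, 125, 161 and 82.7 CPM with MYCN off. Each line was higher with MYCN on, and the groups met only at G9351 with MYCN on and G9529 with MYCN off, both at 161 CPM. It rose 1.92-fold (log2 0.94, SE 0.14, adjusted p = 0.00513) and was called without each line in turn. Dnajc15, of the import motor at the inner membrane, rose 1.79-fold (log2 0.84, adjusted p = 0.0343), and Dnaja3 (Tid1), the class A partner of Hspa9, rose 1.46-fold (log2 0.54, adjusted p = 0.0347). Both were higher with MYCN on in 5 of 5 lines, but neither was called without G4314 (0.0901 for Dnajc15 and 0.0722 for Dnaja3), G9351 (0.0662 and 0.104), G9488 (0.0729 and 0.0759) or G9529 (0.0858 and 0.0842). Dnajc19, Dnajc30, Dnajc4 and Dnajc28 were not called, with log2 changes between -0.69 and 0.06. The summed level of the 8 mitochondrial genes was 962, 972, 1170, 1210 and 1860 CPM with MYCN on, against 454, 413, 620, 521 and 548 CPM with MYCN off. The groups did not overlap, and the ratio of on to off ran from 1.89 to 3.39 over the lines.

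**Figure D3:**
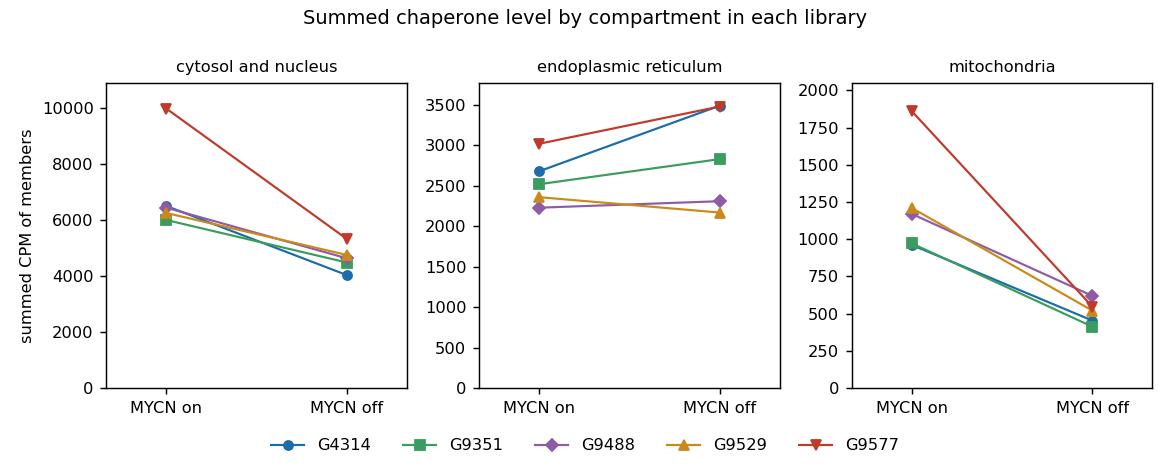
Summed CPM of the chaperone genes of 3 compartments in each library, with all of the 70 genes assigned to them, MYCN on at the left and MYCN off at the right, with lines joining the 2 libraries of a cell line and each axis starting at 0. The sums of the cytosol and nucleus and of mitochondria are higher with MYCN on in all 5 lines, and that of the ER is higher in 1 of 5.

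The ER genes showed no called rise. In edgeR 0 of 14 rose at the adjusted threshold and 0 at an unadjusted p below 0.05, DESeq2 gave 0 and 0, and limma-voom gave 0 and 1. Falls at an unadjusted p below 0.05 numbered 7 in edgeR, of which 2 passed the adjusted threshold, against 6 called falls with DESeq2 and 4 with RLE scaling. DESeq2 and RLE scaling also called more falls over all genes than edgeR with TMM. The share of all genes at the unadjusted threshold is not given, so whether ER falls were in excess there was not tested. Lower values with MYCN on in all 5 lines were found for 9 of the 14 ER genes and for 23.2% of all genes tested. Hspa5 (BiP), the HSP70 of the ER (mm9 chromosome 2, 34627610 to 34632049, plus strand), had 836, 836, 498, 804 and 913 CPM with MYCN on, against 1280, 917, 521, 635 and 1000 CPM with MYCN off. G9529 was higher with MYCN on and the other 4 lines were lower, with the widest gap in G4314. The log2 change was -0.12 (SE 0.16, adjusted p = 0.564) and ran from -0.26 to -0.01 over the alternatives. Hsp90b1 (GRP94), the HSP90 of the ER (mm9 chromosome 10, 86153586 to 86168189, minus strand), had 925, 868, 1020, 840 and 1190 CPM with MYCN on, against 912, 916, 983, 673 and 972 CPM with MYCN off. The groups overlapped, G9351 was lower with MYCN on and the other 4 lines were higher. Its log2 change was 0.12 (SE 0.12, adjusted p = 0.463).

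The promoter windows of Hspa5, Hsp90b1 and Dnajc3 are shown because they hold the ER stress element, through which ATF6 and XBP1 act in the unfolded protein response, while none of the 3 genes was called. The word, CCAAT and CCACG with 9 bases of any kind between them, on either strand, was present in 3 of the 12 ER genes with a window (25.0%). It was present in 37 of 27025 genes with a window (0.137%) and in 17 of 9762 tested genes (0.174%). Capitals mark the matches in the RefSeq GRCm38.p6 stretches at chr2:34771995-34772073 (plus strand), chr10:86705503-86705686 (minus strand) and chr14:118937797-118937875 (plus strand).
Hspa5: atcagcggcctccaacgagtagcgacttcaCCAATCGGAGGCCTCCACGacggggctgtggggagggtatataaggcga
Hsp90b1: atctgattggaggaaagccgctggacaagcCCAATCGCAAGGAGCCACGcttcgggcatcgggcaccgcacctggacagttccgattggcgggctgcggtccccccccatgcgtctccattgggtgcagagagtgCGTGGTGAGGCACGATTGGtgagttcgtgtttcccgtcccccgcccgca
Dnajc3: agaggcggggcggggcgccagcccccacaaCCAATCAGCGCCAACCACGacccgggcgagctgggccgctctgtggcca
The word begins 65 bases before the gene start in Hspa5 and 105 before it in Dnajc3. Hsp90b1 holds it once on each strand, 212 and 107 bases before the start. The sum of the 14 ER genes, in which these 3 take a large part, was 2680, 2520, 2230, 2360 and 3020 CPM with MYCN on, against 3490, 2830, 2310, 2170 and 3480 CPM with MYCN off. It was higher with MYCN on only in G9529, and the ratio of on to off ran from 0.769 to 1.09 over the lines.

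The luminal J proteins that act with BiP were not called. Dnajb9 (ERdj4) had 35.9, 47.8, 34.2, 36.4 and 18.4 CPM with MYCN on, against 119, 62.8, 35.8, 41.5 and 43.0 CPM with MYCN off, with the gap mostly in G4314 and G9577 (log2 -0.72, adjusted p = 0.0818, and 0.0257 with DESeq2). Dnajb11 (ERdj3) had a log2 change of 0.01, Dnajc3 (p58IPK) of -0.30 and the disulfide reductase Dnajc10 (ERdj5) of -0.50, with adjusted p of 0.945, 0.101 and 0.0781 in this order. Hspa13 and the membrane J proteins Dnajb12 and Dnajb14, both of ER-associated degradation, Dnajc1, Dnajc14 and Dnajc25 had log2 changes between -0.49 and 0.42 and were not called (adjusted p between 0.0629 and 0.209).

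A pair of J-domain genes of the ER membrane fell. Dnajc18 (mm9 chromosome 18, 35830759 to 35862798, minus strand) had 52.0, 50.6, 35.4, 46.5 and 33.1 CPM with MYCN on, against 91.6, 87.8, 50.1, 72.6 and 86.1 CPM with MYCN off. Each line was lower with MYCN on, and the groups overlapped by little, at G9488 with MYCN off. The fall was 1.77-fold (log2 -0.83, SE 0.16, adjusted p = 0.0104), and it was called without each line in turn. Dnajc16 (mm9 chromosome 4, 141317913 to 141346559, minus strand) had 47.3, 72.2, 56.3, 66.0 and 29.4 CPM with MYCN on, against 87.0, 111, 64.4, 93.3 and 53.4 CPM with MYCN off. It fell 1.53-fold (log2 -0.61, SE 0.14, adjusted p = 0.0195), although the groups overlapped, and the call was lost without G4314 (0.07) or G9351 (0.072).

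Among vesicle genes, Dnajc6 (auxilin), which strips clathrin from endocytic vesicles in neurons (mm9 chromosome 4, 101169253 to 101315404, plus strand), had 76.4, 58.5, 20.1, 24.6 and 0.373 CPM with MYCN on, against 136, 108, 28.3, 46.7 and 0.334 CPM with MYCN off. It was lower with MYCN on in the 4 lines other than G9577 and near 0 in both libraries of G9577, and the groups overlapped. It fell 1.67-fold (log2 -0.74, SE 0.16, adjusted p = 0.0154), and the call was lost without G4314 (0.0714) or G9351 (0.0738). Dnajc5 (cysteine string protein), which guards synaptic vesicle proteins, was lower with MYCN on in 5 of 5 lines but was not called (log2 -0.29, adjusted p = 0.085). The endosomal Dnajc13 and the ciliary transport subunit Hspb11 had log2 changes of 0.11 and -0.01 and were not called (adjusted p = 0.545 and 0.975).

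**Figure D4:**
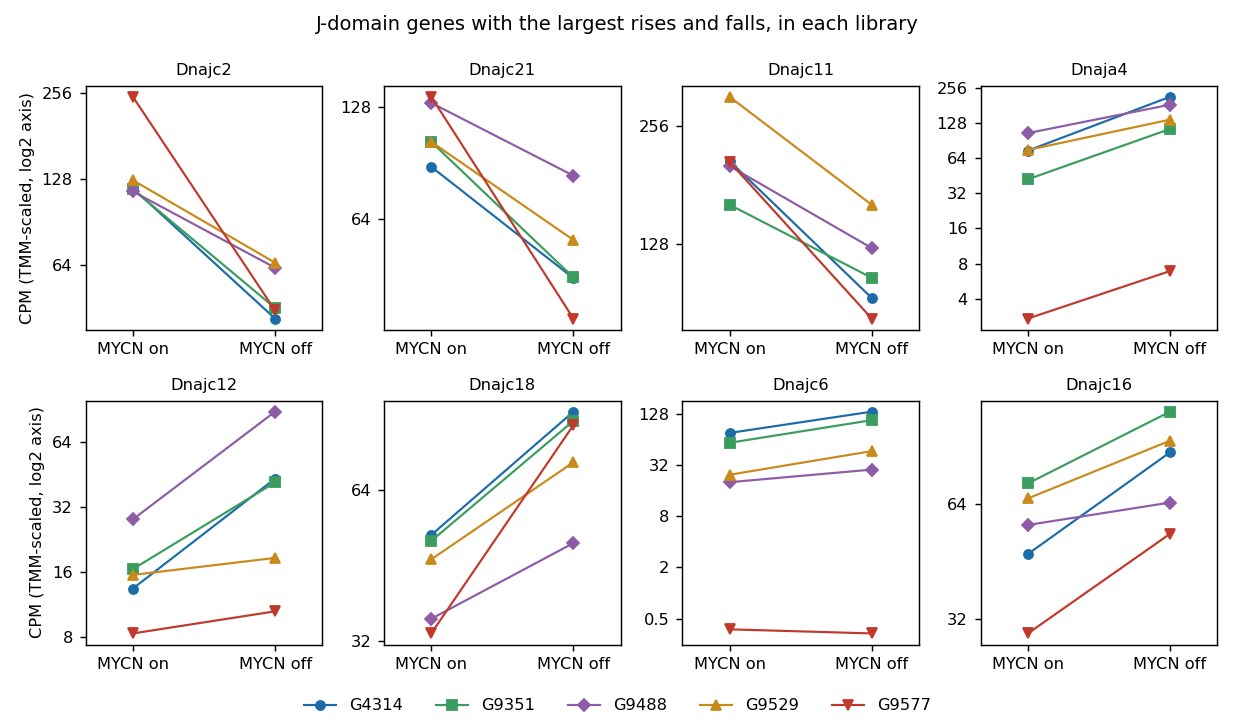
CPM (log2 axis, a scale of its own in each panel) of 8 J-domain genes in each library, MYCN on at the left and MYCN off at the right, with lines joining the 2 libraries of a cell line. Dnajc2, Dnajc21 and Dnajc11 are higher with MYCN on in all 5 lines, and Dnaja4, Dnajc12, Dnajc18 and Dnajc16 lower in all 5, while Dnajc6 is lower in the 4 lines other than G9577.

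Some chaperone genes had levels in G9577 outside those of the other lines in both states, at shares below those of all genes. Both of its libraries lay above all 8 libraries of the other lines for 7 of 58 tested genes, namely Dnajb6, Dnajc10, Dnajc13, Dnajc24, Dnajc25, Hspb6 and Hspb8, as for 15.9% of all genes tested. Both lay below for 5, namely Dnaja4, Dnajc12, Dnajc5, Dnajc6 and Hspa1l, as for 19.0% of all genes tested. Hspb6, a small heat shock protein of muscle and mesenchymal cells, had 60.6 CPM with MYCN on, against 171 CPM with MYCN off, in G9577. In the other lines it had 6.97 to 11.0 CPM with MYCN on and 8.62 to 10.5 CPM with MYCN off. The stress-inducible Hspa1b, which did not meet the minimum, had 19.8 CPM with MYCN on, against 104 CPM with MYCN off, in G9577 and below 0.5 CPM in each other library. Hspa1a, with 5.40 CPM with MYCN on, against 32.7 CPM with MYCN off, in G9577, Hspb1, with 12.7 CPM with MYCN on, against 11.7 CPM with MYCN off, and Hspb7, with 25.3 CPM with MYCN on, against 56.2 CPM with MYCN off, were likewise seen almost only there. Hspa1a and Hspa1b share 66.3% and 62.3% of their stretches of 50 bases with other genes, so these levels are partial. The mesenchymal markers above and Pdgfra, Pdgfrb and Lum of the fibroblast list were higher in the same 2 libraries. Dcn and Thy1 of that list were not. The part of these markers in the chaperone levels was not tested.

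**Figure D5:**
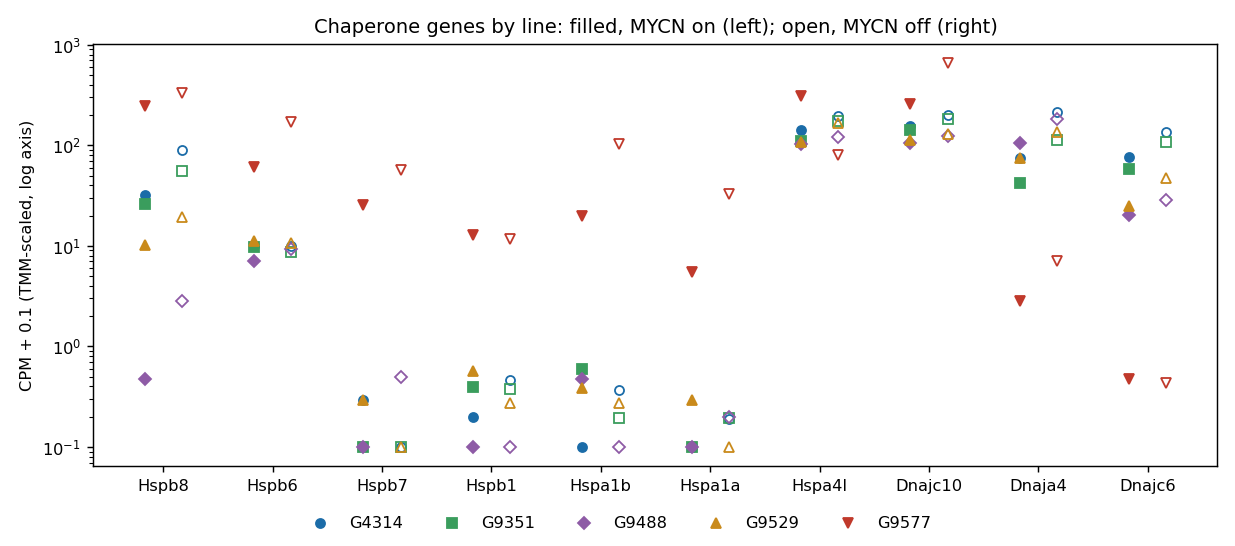
CPM + 0.1 (log axis) of 10 chaperone genes in each library, filled symbols for MYCN on at the left of each pair and open symbols for MYCN off at the right. G9577 (red) lies far above the other lines for the small heat shock genes Hspb8, Hspb6, Hspb7 and Hspb1 and for Hspa1b and Hspa1a, and far below them for Dnaja4 and Dnajc6.

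Partner genes outside the symbol rule were examined as lists. These lists were chosen with earlier results of these data known, so the shares below describe them and are no test. Of 30 co-chaperones of HSP70 and HSP90 in the cytosol, 9 rose (30.0%, against 15.3% of all genes tested) and 1 fell (3.33%, against 15.6%), with a median log2 change of 0.31 beside -0.08 for all genes. Without G4314 4 rose, and without G9351, G9488 or G9529 5 rose. The immunophilin Fkbp4, an HSP90 partner in steroid receptor complexes, rose 2.38-fold (log2 1.25, SE 0.22, adjusted p = 0.00818). The cyclophilin Ppid rose 2.31-fold (adjusted p = 0.0103), the HSP70 exchange factor Bag2 2.07-fold (adjusted p = 0.0123) and the HSP90 partner Nudc 1.96-fold (adjusted p = 0.0109). Each of these 4 genes was higher with MYCN on in 5 of 5 lines.

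Of 13 mitochondrial chaperones and proteases that work beside Hspa9, 7 rose in edgeR (53.8%, against 15.3% of all genes tested) and 0 fell (15.6% of all genes), with a median log2 change of 0.58. Without G9351 4 rose, as did 813 of the 12870 genes tested in that fit. Clpx passed an unadjusted p of 0.05 as a fall (0.0219), which DESeq2 called. Hspd1 (HSP60), the matrix chaperonin, averaged 446 ± 245 CPM with MYCN on, against 111 ± 42 CPM with MYCN off (SD, n = 5 each), a 3.83-fold rise (log2 1.94, SE 0.26, adjusted p = 0.00431). Its lid Hspe1 rose 3.26-fold (adjusted p = 0.00422), the mitochondrial HSP90 Trap1 1.98-fold (adjusted p = 0.00347), the protease subunit Clpp 1.67-fold (adjusted p = 0.00799) and Grpel1, the nucleotide exchange factor of Hspa9, 1.49-fold (adjusted p = 0.0106). Grpel1 was not called without G9351 (0.0574), and the other four were called without each line in turn.

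Of 28 ER folding and unfolded protein response genes, 2 rose and 1 fell (median log2 change 0.05), a share of 7.14% for rises and 3.57% for falls, both below the 15.3% and 15.6% of all genes tested. The disulfide isomerase Pdia4 rose 1.40-fold (adjusted p = 0.0169) and the secreted ER stress protein Manf 1.39-fold (adjusted p = 0.0422), while the ubiquitin ligase Syvn1 fell 1.48-fold (adjusted p = 0.0242). None of these calls held without each line in turn. Manf was lost without G4314, G9351, G9488 or G9529 (adjusted p of at most 0.13), Pdia4 without G4314 or G9529 (at most 0.072) and Syvn1 without G4314, G9351 or G9488 (at most 0.0814). The factors Xbp1 and Ddit3 (CHOP) had log2 changes of -0.53 (adjusted p = 0.0501) and -0.08 (adjusted p = 0.894). Xbp1 was called as a fall by DESeq2 (0.0135) and limma-voom (0.0451), and by edgeR with RLE scaling (0.0377) and with library size alone (0.0413). Without G9577 4 of the list rose and 1 fell, where 17.4% of all genes rose and 17.4% fell.

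Among the regulators of the heat shock response, Hsf1, its main factor, rose 1.50-fold (log2 0.58, adjusted p = 0.0229, lost without G4314, G9351 or G9529 with adjusted p of at most 0.0785). Hsbp1, which binds Hsf1, fell 1.38-fold (log2 -0.47, adjusted p = 0.0191, lost without G4314 or G9351 with adjusted p of at most 0.0731). Hsf2 was not called (log2 -0.04, adjusted p = 0.877). The J-domain genes with other symbols, among them Sec63, Gak and Hscb (Sec63 and Hscb also stand in the lists above), gave 0 calls of 4 tested at the adjusted threshold in edgeR, with Hscb past an unadjusted p of 0.05 at 0.0484.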

How the data were processed

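Libraries were prepared from TRIzol-extracted, oligo-dT-selected RNA with an unstranded NEBNext Ultra kit, per the labels' protocols. Per the submitters' processing notes, bcl2fastq 1.8.4, STAR 2.5.2a and the build mm9 were used. Per the file headers, the authors made raw counts per gene with featureCounts 1.6.0, without strand, and set no option that would count reads mapping to several places or overlapping several genes.

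From the deposited counts, edgeR 4.0.16 (R 4.3.3) removed genes with filterByExpr (minimum count 10), scaled with TMM and ran a two-sided quasi-likelihood F test with the line as a block, Benjamini-Hochberg adjustment over 12835 genes and a threshold of 0.05 (4 residual degrees of freedom, biological coefficient of variation 28.5%). Dnajc22 was described but removed by this filter. Log2 changes of single lines used a prior count of 2. The block rests on the line named in each title: within groups, deviations of the 2 libraries of a line correlated at 0.721 to 0.873, and those of different lines at most at 0.273. The test was tried on simulated counts first. P-values measure the spread over these 5 lines with 1 culture per state.

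The members and lists were chosen with earlier results of these data known. Values in every library are given for Hspa8, Hsph1, Hspa5, Hspa9 and the HSP90 genes, for the 6 called members with the largest rise and the 6 with the largest fall among those averaging at least 5 CPM, and for the member of each compartment with the smallest p. Of partner lists, fold or log2 changes are given for up to 5 genes with the smallest p, Hsf1, Hsf2, Xbp1 and Ddit3. Hspa4l, Dnajb5, Dnajb9 and other genes given beyond that rule were chosen after their values were seen. Some genes of the lists are counted in them but not reported here by name. Alternatives were no block, DESeq2 1.42.0, limma-voom (limma 3.58.1), RLE scaling, library size alone, no filter, the filter of the member rule, and each line left out. Sharing of 50-base stretches was computed on GENCODE M21 transcripts. Motif words were searched in RefSeq windows of 300 bases.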

Additional observations from a re-analysis of the deposited data

Results flagged for a closer look

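Within each group of 5, a value was singled out where its gap to the nearest other value, divided by the whole range, exceeded 0.71, which chance alone gives in about 1 in 20 groups. Of 58 sets of 5 line changes 4 held such a value, and of 116 sets of 5 levels, compared on the scale of log2(CPM + 1), 17 did. Of these 21 values 13 belonged to G9577, 5 to G9488, 2 to G9351, 1 to G9529 and 0 to G4314.

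In G9577 the log2 changes that stood out were 1.97 for Hspa4l (other lines -0.66 to -0.23), 1.08 for Dnaja3 (0.25 to 0.48), -1.36 for Dnajc10 (-0.37 to -0.19) and -1.11 for Dnajc14 (-0.43 to -0.18). Its levels stood out upwards with MYCN on for Hsp90ab1 (4920 CPM), Hspa4 (1180 CPM), Hspa4l (312 CPM), Dnajc2 (249 CPM) and Hspb6 (60.6 CPM), and with MYCN off for Dnajc10 (656 CPM) and Hspb6 (171 CPM). Dnaja4 stood out downwards in G9577, at 2.70 CPM with MYCN on, against 6.90 CPM with MYCN off.

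In G9488 with MYCN on, Hspa5 (498 CPM, others 804 to 913), Dnajc3 (33.0 CPM, others 94.8 to 141) and Dnajc7 (249 CPM, others 285 to 297) were low and Dnajc1 was high (57.5 CPM, others 39.4 to 42.2), and with MYCN off Dnajc14 was high (177 CPM, others 107 to 123). In G9351, Hspa12a was high with MYCN on (7.40 CPM, others up to 0.744) and Dnaja3 low with MYCN off (24.1 CPM, others 46.5 to 58.6). In G9529, Hsp90b1 was low with MYCN off (673 CPM, others 912 to 983).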

How the results depend on the processing

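Without the line as a block, the fit gave 2 chaperone rises (Hspa9 and Dnajc2) and 0 falls, 1 rise in the cytosol and nucleus and 1 in mitochondria, 215 rises and 59 falls over all genes, 1 co-chaperone rise, 3 mitochondrial partner rises, and 0 rises and 0 falls in the ER folding list. Chaperone falls numbered 17 with DESeq2 and 11 with RLE scaling, fits that also called more falls over all genes than edgeR with TMM. Rises in the ER folding list numbered 1 with RLE scaling, with library size alone and with no filter, and its falls 2 with DESeq2, limma-voom, RLE scaling and library size alone. With 1 line left out at a time, counts ran from 5 to 14 for chaperone rises, 3 to 9 for chaperone falls, 3 to 10 for rises in the cytosol and nucleus, 2 to 4 in mitochondria, 813 to 2244 for all rises, 916 to 2249 for all falls, 4 to 9 for co-chaperone rises, 4 to 8 for mitochondrial partner rises, 0 to 4 for ER folding rises and 0 to 1 for ER folding falls. Fewer lines leave fewer residual degrees of freedom. ER chaperone rises stayed at 0 in all 12 alternatives. Of the 20 called chaperone genes, 7 (Hspa9, Dnajc2, Dnajc21, Dnajc11, Hsp90ab1, Dnaja4 and Dnajc18) kept the call in all 11 alternatives that keep the block, and 0 of the 20 changed sign in any alternative.

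Levels are relative to each library's total, and the median log2 change of all genes was -0.08 with TMM, -0.12 with RLE and -0.09 with library size alone. Genes with near copies are counted in part. Each state has 1 culture per line, and no protein was measured.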
